A study of Homo sapiens with 3 samples.

Results

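The 10 genes described here are 8 matrix metalloproteinases (MMP1, MMP2, MMP3, MMP7, MMP9, MMP10, MMP13 and MMP14) and 2 of their tissue inhibitors (TIMP1 and TIMP2), picked by name from the 35851 rows of the deposited table. All 10 were found. They were chosen with their values in these libraries already known, so every level and ratio of a member is given as a description, with no test. The cells were 5637, a human bladder cancer line labelled wild type, transfected with siRNA against MYBL2 (2 libraries, siMYBL2-1 and siMYBL2-2) or with a control siRNA (1 library, siNC). MYBL2 is a transcription factor of the MYB family, and the series asks which genes lie downstream of it in bladder cancer. Poly(A) RNA was sequenced, all libraries come from 1 cell line, and the knockdown is a transient loss of transcript in otherwise unmodified cells. The labels do not state whether -1 and -2 are separate siRNA sequences or repeats of 1 sequence, and they name no separate cultures, so any spread between these samples may be technical.

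Matrix metalloproteinases are zinc-dependent proteases that cut proteins of the extracellular matrix and of the cell surface. Most are secreted as inactive proenzymes, held latent by a cysteine of the propeptide that occupies the catalytic zinc, and become active when the propeptide is cut. TIMPs block the active site, and the balance between proteases and inhibitors is one of the features studied in the invasion of bladder tumours through the basement membrane.

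Levels are the authors' RPKM, that is reads per kilobase of exon as a share of all assigned reads, which allows genes of different length to be set side by side. Assigned reads numbered 41818861 in siMYBL2-1, 46177658 in siMYBL2-2 and 40259436 in siNC, and 3 reads on 1 kilobase correspond to 0.0717, 0.0650 and 0.0745 RPKM. MYBL2 itself stood at 46.0 and 56.3 RPKM in the siMYBL2 libraries, against 211 RPKM in siNC. Of 13 epithelial and urothelial markers, 10 reached 1 RPKM in every library (summed level 2497 and 1982 RPKM in the siMYBL2 libraries, 2342 RPKM in siNC), while UPK1A and UPK1B had 0 reads throughout. Of 7 measured fibroblast markers THY1 and COL1A1 reached 1 RPKM in every library (summed 4.30 and 3.17 RPKM in the siMYBL2 libraries, 3.39 RPKM in siNC), of 7 leukocyte markers only CD68 did (summed 5.53 and 4.22 RPKM, 3.64 RPKM in siNC; CD163 had 0 reads), and of 5 endothelial markers 0 did (summed 0.297 and 0.117 RPKM, 0.0937 RPKM in siNC).

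In control cells the family was carried by few members. MMP14, the membrane-type protease, and MMP1, the interstitial collagenase, stood above 100 RPKM in siNC, MMP10, TIMP2 and MMP13 between 10 and 30 RPKM, and MMP2 and TIMP1 below 10 RPKM. MMP3, MMP7 and MMP9 did not reach a mean of 1 RPKM over the 3 libraries, the filter below which no ratio test was run. The 7 others reached 1 RPKM in every library. In both siMYBL2 libraries MMP1, MMP13, MMP10, MMP2 and TIMP1 were lower than in siNC, MMP14 was lower by a small amount, and TIMP2 was higher. In bulk RNA, fewer cells that express a gene and less RNA per cell cannot be told apart.

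**Figure D1:**
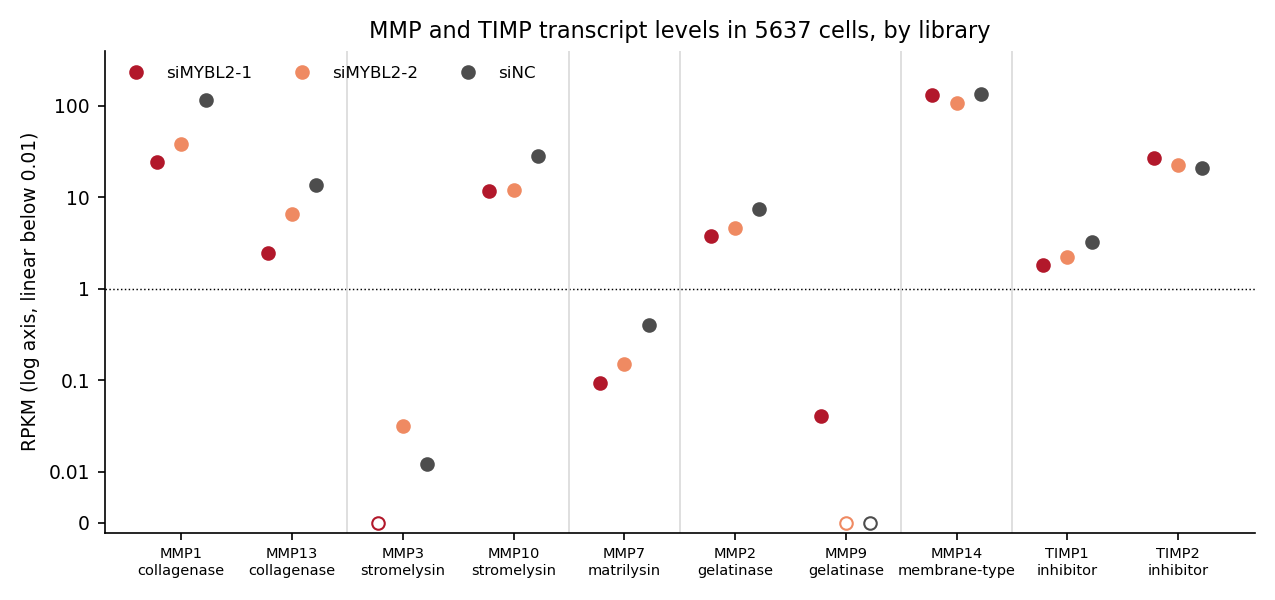
RPKM of the 10 genes (log axis, linear below 0.01) in siMYBL2-1, siMYBL2-2 and siNC, 1 point per library, grouped by the role of the protein, with open circles for 0 reads and a dotted line at 1 RPKM. The siMYBL2 points of MMP1, at 24.0 and 38.2 RPKM, lie below the siNC point at 116 RPKM, while those of TIMP2, at 26.7 and 22.4 RPKM, lie above the siNC point at 20.8 RPKM.

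The collagenases MMP1 and MMP13 cleave the triple helix of fibrillar collagens. MMP1 (chromosome 11, 102789920 to 102798160, minus strand, hg38) measured 24.0 RPKM (1979 reads) in siMYBL2-1 and, in siMYBL2-2, 38.2 RPKM (3479 reads), against 116 RPKM (9168 reads) in siNC. The siMYBL2 mean was 31.1 ± 10.1 RPKM (SD, n = 2). MMP1 thus stood 4.81-fold below siNC in siMYBL2-1 (95% interval from counting 4.58 to 5.05) and 3.02-fold below it in siMYBL2-2 (2.91 to 3.14). Both siMYBL2 values lay well below the siNC value, and between themselves they differed 1.59-fold (1.51 to 1.68), with siMYBL2-1 the lower.

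MMP13 (chromosome 11, 102942995 to 102955734, minus strand), a collagenase with a preference for type II collagen, had the same order of libraries at a lower level. It measured 2.45 RPKM (290 reads) in siMYBL2-1 and, in siMYBL2-2, 6.56 RPKM (858 reads), against 13.7 RPKM (1566 reads) in siNC. That is 5.61-fold below siNC in siMYBL2-1 (interval 4.95 to 6.38) and 2.09-fold below it in siMYBL2-2 (1.93 to 2.28). MMP13 was the member on which the siMYBL2 libraries differed most among the 7, with siMYBL2-1 2.68-fold (2.34 to 3.07) below siMYBL2-2, a larger fold than that of siMYBL2-2 below siNC. Together the collagenases came to 26.5 and 44.8 RPKM in the siMYBL2 libraries, against 129 RPKM in siNC.

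The stromelysins MMP3 and MMP10 cut proteoglycans, laminin and fibronectin, and can take part in the activation of procollagenase. MMP10 (chromosome 11, 102770503 to 102780628, minus strand) measured 11.8 RPKM (871 reads) in siMYBL2-1 and, in siMYBL2-2, 11.9 RPKM (968 reads), against 28.2 RPKM (1996 reads) in siNC. Of the members measured above 1 RPKM it had the closest pair of siMYBL2 values, with a mean of 11.9 ± 0.0541 RPKM (SD, n = 2). MMP10 stood 2.38-fold below siNC in siMYBL2-1 (interval 2.20 to 2.58) and 2.37-fold below it in siMYBL2-2 (2.19 to 2.56). MMP3 (chromosome 11, 102835801 to 102843803, minus strand) was practically unmeasured, with 0 reads in siMYBL2-1, 3 in siMYBL2-2 and 1 in siNC, and no fold is given at such counts. In siMYBL2-1 a count of 0 allows up to 0.0350 RPKM.

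Matrilysin, MMP7 (chromosome 11, 102520508 to 102530753, minus strand), is the small metalloproteinase that lacks the hemopexin domain and is made mainly by epithelial cells. It had 9 reads (0.0926 RPKM) in siMYBL2-1 and 16 reads (0.149 RPKM) in siMYBL2-2, against 38 reads (0.406 RPKM) in siNC. That is 0.228 times siNC in siMYBL2-1 (interval 0.0970 to 0.480) and 0.367 times siNC in siMYBL2-2 (0.191 to 0.674). The counts are small, and the intervals are wide and cover counting error only.

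Promoters are shown because inducible MMP genes are known for a binding site of AP-1, the dimer of FOS and JUN family proteins, just ahead of the TATA box. The sequences are from the RefSeq promoter table (GRCh38.p14), in which MMP10, MMP7, MMP14 and TIMP1 were matched, 4 of the 10 members, and those of MMP1, MMP2, MMP3, MMP9, MMP13 and TIMP2 are not shown. Each line gives the 100 bases that end just before the annotated start site, 5′ to 3′ on the strand of the gene, with the AP-1 motif TGANTCA and the TATA motif TATAAA in capitals.
MMP10: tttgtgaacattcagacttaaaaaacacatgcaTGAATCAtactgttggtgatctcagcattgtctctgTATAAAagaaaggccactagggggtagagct
MMP7: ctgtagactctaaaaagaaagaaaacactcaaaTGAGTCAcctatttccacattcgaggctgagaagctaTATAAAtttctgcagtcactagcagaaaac
MMP14: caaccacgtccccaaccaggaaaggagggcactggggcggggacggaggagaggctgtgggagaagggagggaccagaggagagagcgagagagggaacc
TIMP1: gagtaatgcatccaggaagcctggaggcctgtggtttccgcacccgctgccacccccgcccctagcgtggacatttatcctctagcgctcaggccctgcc

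These windows are chr11:102780629-102780728 (minus strand) for MMP10, chr11:102530748-102530847 (minus strand) for MMP7, chr14:22836485-22836584 (plus strand) for MMP14 and chrX:47582336-47582435 (plus strand) for TIMP1. The TIMP1 window lies inside the deposited span of the gene, which begins at 47582313, ahead of the RefSeq start at 47582436. The MMP14 and MMP7 windows overlap their deposited spans in part, since these begin at 22836557 and 102530753. In MMP10 both starts are the same. With -1 as the base before the start site, the AP-1 motif occupies positions -67 to -61 in both MMP10 and MMP7, and the TATA motif begins at -31 in MMP10 and -30 in MMP7. The AP-1 match reads TGAATCA in MMP10 and TGAGTCA in MMP7. Searched on both strands over the 250 bases before the start, TGANTCA was present in 6.57% and TATAAA in 10.7% of 35116 RefSeq promoter windows. Neither was found in the windows of MMP14 and TIMP1, whose 250 bases hold 56.8% and 64.8% G and C, against 34.4% in MMP10 and 33.6% in MMP7 and a median of 58.0% over all windows.

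Further motifs were looked for in the same way and without overlap between them being removed. The PEA3 motif of ETS factors, AGGAAG, was found at 2 positions in MMP7, at 1 in TIMP1 and at 0 in MMP10 and MMP14, and 28.7% of all windows hold it. The CHR motif TTTGAA, an element bound by the MuvB complex with which MYBL2 acts, was found at 2 positions in MMP7 and at 0 in the other 3 genes, and is held by 13.3% of windows. The MYB motif AACNG, which 70.6% of windows hold, was found at 1 position in MMP10 and in MMP14 and at 0 in MMP7 and TIMP1. All 4 genes were below siNC in both siMYBL2 libraries, MMP14 by little in siMYBL2-1 and MMP7 at small counts. Whether any of these motifs bears on the levels was not tested. A match is a run of letters and no evidence of binding.

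The gelatinases MMP2 and MMP9 digest denatured collagen and the type IV collagen of basement membranes. MMP2 (chromosome 16, 55389700 to 55506691, plus strand) measured 3.75 RPKM (774 reads) in siMYBL2-1 and, in siMYBL2-2, 4.57 RPKM (1042 reads), against 7.41 RPKM (1471 reads) in siNC. It stood 1.97-fold below siNC in siMYBL2-1 (interval 1.81 to 2.16) and 1.62-fold below it in siMYBL2-2 (1.49 to 1.75). The siMYBL2 mean of 4.16 ± 0.581 RPKM (SD, n = 2) was 3.24 RPKM below siNC. MMP9 (chromosome 20, 46008908 to 46016561, plus strand), often studied in bladder tumours, was not detectable at this depth in siMYBL2-2 and siNC, with 0 reads each, and had 4 reads in siMYBL2-1. The counts of 0 allow up to 0.0278 RPKM in siMYBL2-2 and 0.0319 RPKM in siNC.

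MMP14 (chromosome 14, 22836557 to 22849027, plus strand) encodes the membrane-type metalloproteinase that sits in the plasma membrane, cleaves collagen around the cell and activates proMMP2 in a complex with TIMP2. It had the highest level of the 10 genes in each library, with 131 RPKM (24518 reads) in siMYBL2-1 and, in siMYBL2-2, 107 RPKM (21984 reads), against 135 RPKM (24173 reads) in siNC. It was 0.976 times siNC in siMYBL2-1 (interval 0.959 to 0.994) and 0.793 times siNC in siMYBL2-2 (0.779 to 0.808). Here the order of the siMYBL2 libraries was the reverse of that in MMP1 and MMP13, and the siMYBL2-1 value was close to siNC. The siMYBL2 mean of 119 ± 17.5 RPKM (SD, n = 2) lay 15.5 RPKM below siNC, a gap smaller than that SD. The siNC value stood above both siMYBL2 values.

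The inhibitors went opposite ways. TIMP1 (chromosome X, 47582313 to 47586789, plus strand), a secreted inhibitor that acts weakly on MMP14, measured 1.80 RPKM (116 reads) in siMYBL2-1 and, in siMYBL2-2, 2.22 RPKM (158 reads), against 3.26 RPKM (202 reads) in siNC. It stood 1.81-fold below siNC in siMYBL2-1 (interval 1.43 to 2.29) and 1.47-fold below it in siMYBL2-2 (1.18 to 1.82). TIMP2 (chromosome 17, 78852977 to 78925387, minus strand), which inhibits MMP14 and also bridges it to proMMP2, measured 26.7 RPKM (6278 reads) in siMYBL2-1 and, in siMYBL2-2, 22.4 RPKM (5835 reads), against 20.8 RPKM (4718 reads) in siNC. It was 1.28 times siNC in siMYBL2-1 (1.23 to 1.33) and 1.08 times siNC in siMYBL2-2 (1.04 to 1.12). TIMP2 held 93.7% and 91.0% of the summed TIMP1 and TIMP2 level in the siMYBL2 libraries, against 86.5% in siNC.

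The order of levels within the family differed between libraries below the top place. In siNC the order was MMP14, MMP1, MMP10, TIMP2, MMP13, MMP2 and TIMP1. In siMYBL2-2 TIMP2 stood above MMP10, and in siMYBL2-1 it also stood above MMP1, while MMP13 stood below MMP2. MMP1 and TIMP2 are neighbours in the order of both siMYBL2 libraries and stand in opposite order in them (24.0 and 26.7 RPKM in siMYBL2-1, 38.2 and 22.4 RPKM in siMYBL2-2), so their order is not beyond the spread of the pair. The same holds for MMP13 and MMP2 (2.45 and 3.75 RPKM in siMYBL2-1, 6.56 and 4.57 RPKM in siMYBL2-2).

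Summed over the 8 MMPs, the level was 174 and 168 RPKM in the siMYBL2 libraries, against 299.9 RPKM in siNC. MMP1 made up 13.8% and 22.7% of it in the siMYBL2 libraries and 38.6% in siNC, and MMP14 75.7% and 63.4% in the siMYBL2 libraries and 44.9% in siNC. The summed level of TIMP1 and TIMP2 was 28.5 and 24.7 RPKM, against 24.1 RPKM in siNC. The sum of the 8 MMPs was thus 6.10 and 6.82 times that of TIMP1 and TIMP2 in the siMYBL2 libraries, against 12.5 times in siNC. Without MMP1 these ratios were 5.26 and 5.27, against 7.66 in siNC. Over all 22 MMP and 4 TIMP rows, which include TIMP3, they were 4.96 and 5.30, against 9.41 in siNC. These are ratios of transcript levels per length and hold no information on protein or activity.

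**Figure D2:**
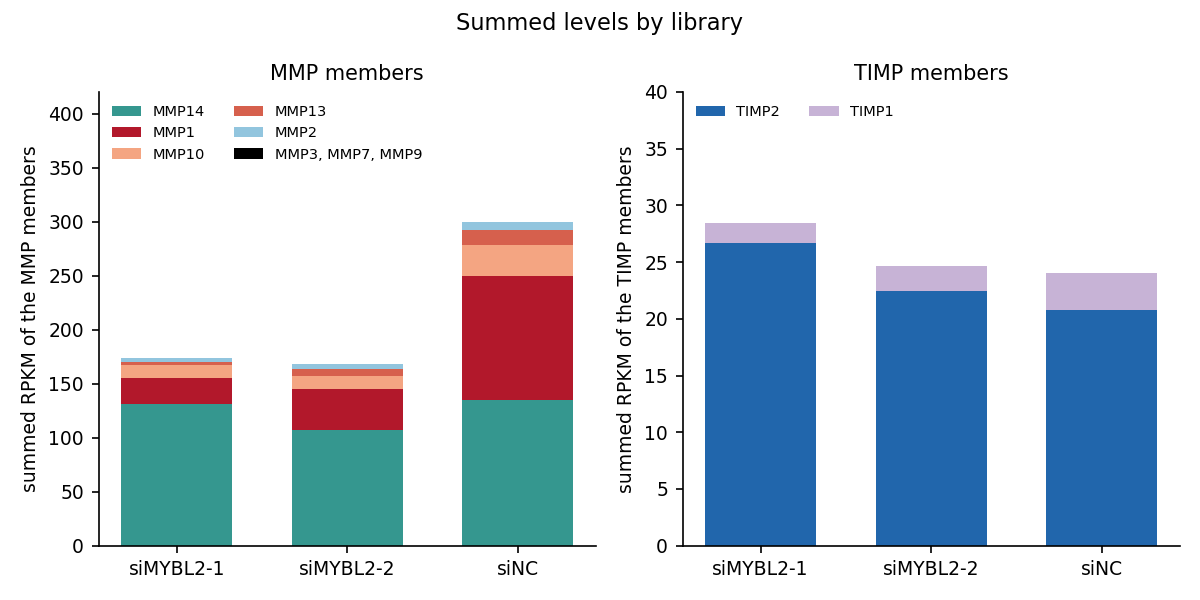
Summed RPKM of the MMP members (left) and of the TIMP members (right) in siMYBL2-1, siMYBL2-2 and siNC, 1 bar per library, with segments for single genes. The MMP bars reach 174 and 168 RPKM in the siMYBL2 libraries and 299.9 RPKM in siNC, and most of that gap is the MMP1 segment.

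Across all 13274 genes that averaged 1 RPKM or more, limma-trend on log2(RPKM + 1) called 1 gene (0.00753% of those tested, Benjamini-Hochberg adjusted p under 0.05), which was higher in siMYBL2, and 0 lower (0%). MYBL2 itself was among the genes tested, with log2 ratios to siNC of -2.17 and -1.89, and was not called. A gene not called by this fit is therefore not shown to be unchanged. An unadjusted p under 0.05 was found for 625 genes (4.71%). By limma-voom on reads recovered from the RPKM, 10 rows were called (0.0753%). These counts are the background for the lists further on, and the members, chosen on this contrast, are described by size. MMP1 and MMP10 lay below siNC at least 2-fold on the log2(RPKM + 1) scale in siMYBL2-1 as well as siMYBL2-2, as did 54 genes in all (0.407%). MMP13 missed that mark with a log2 ratio of -0.96 in siMYBL2-2, a miss that depends on the pseudocount, since the ratio was -1.01 with a pseudocount of 0.5 and -1.05 with 0.1. No member was 2-fold higher in both (28 genes in all, 0.211%).

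The log2 ratios to siNC on that scale were -2.22 and -1.57 for MMP1, -2.09 and -0.96 for MMP13 and -1.18 and -1.18 for MMP10 in siMYBL2-1 and siMYBL2-2. They were -0.82 and -0.59 for MMP2, -0.60 and -0.40 for TIMP1, -0.03 and -0.33 for MMP14 and 0.34 and 0.10 for TIMP2. Of these 7, 6 were lower in both libraries, 1 was higher in both and 0 lay on opposite sides of siNC, where 36.4%, 29.7% and 33.9% of all tested genes did so. Their median was -0.82 in siMYBL2-1 and -0.59 in siMYBL2-2, beside -0.04 and -0.01 over all tested genes. Since these values chose the members, nothing is read from the counts, and both ratios share the siNC library.

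**Figure D3:**
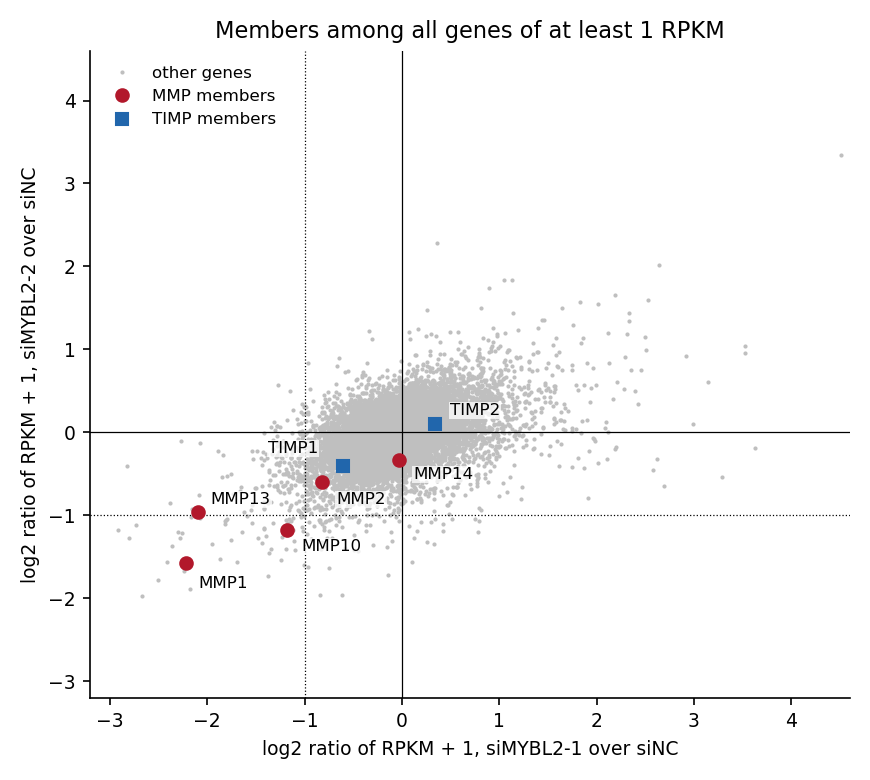
Log2 ratio of RPKM + 1 to siNC in siMYBL2-1 (horizontal) and siMYBL2-2 (vertical) for the 13274 genes tested, with the 7 members above the filter marked and dotted lines at -1. MMP1, MMP10 and MMP13 lie toward the lower left, MMP14 and TIMP2 inside the cloud, and both axes share the siNC library.

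MMP1, MMP3, MMP7, MMP10 and MMP13 lie in the MMP cluster of chromosome 11 (102520508 to 102955734), where 8 MMP rows of the table lie within 435 kilobases on the minus strand. Only MMP1, MMP10 and MMP13 reached a mean of 1 RPKM there. MMP12, the macrophage elastase, had 6 and 14 reads in the siMYBL2 libraries and 16 in siNC, MMP20 had 1, 2 and 1, and MMP8 had 0 in each.

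WTAPP1, a transcribed pseudogene on the plus strand (102746968 to 102836766), spans MMP10 and MMP1 whole and the end of MMP3. It measured 10.9 RPKM (1523 reads) in siMYBL2-1 and, in siMYBL2-2, 16.8 RPKM (2579 reads), against 55.4 RPKM (7430 reads) in siNC. By ratio it was 0.197 and 0.303 times siNC, beside 0.208 and 0.331 for MMP1. The reads of WTAPP1 were 0.770 and 0.741 times those of MMP1 in the siMYBL2 libraries and 0.810 times in siNC, so both rows kept nearly the same proportion. Of the exonic bases of MMP1 92.4% belong to no other row, and of those of MMP10, which lies within the span of WTAPP1, 100%. The protocol keeps the strand of the RNA but no source used here states the strand setting of the counting, so reads of the shared bases of MMP1 and WTAPP1 cannot be told apart. The same limit touches MMP9, TIMP2, MMP2 and MMP3, of whose exonic bases 81.6%, 90.0%, 96.5% and 98.4% belong to no other row, while MMP7, MMP13, MMP14 and TIMP1 share none.

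Genes next to the cluster lay on both sides of siNC. On the side of MMP7, TMEM123 was at 18.7 and 18.9 RPKM in the siMYBL2 libraries and 21.2 RPKM in siNC. The apoptosis inhibitors BIRC2 (12.5 and 15.5 RPKM, against 11.4 RPKM in siNC) and BIRC3 (4.61 and 3.39 RPKM, against 3.51 RPKM) and the transcriptional coactivator YAP1 (26.1 and 18.4 RPKM, against 18.9 RPKM) lie further out. On the side of MMP13, DCUN1D5, which acts in cullin neddylation, was higher in both, at 115 and 125 RPKM against 76.4 RPKM in siNC. DYNC2H1, a motor of ciliary transport, was at 1.56 and 3.52 RPKM against 2.50 RPKM. Of the 7 genes of this neighbourhood in the fit that are not members, 2 lay below siNC in both libraries (WTAPP1 and TMEM123), 2 above it in both (BIRC2 and DCUN1D5) and 3 on opposite sides. Of these 7, limma called 0, 2 had an unadjusted p under 0.05 and limma-voom called 1, WTAPP1.

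**Figure D4:**
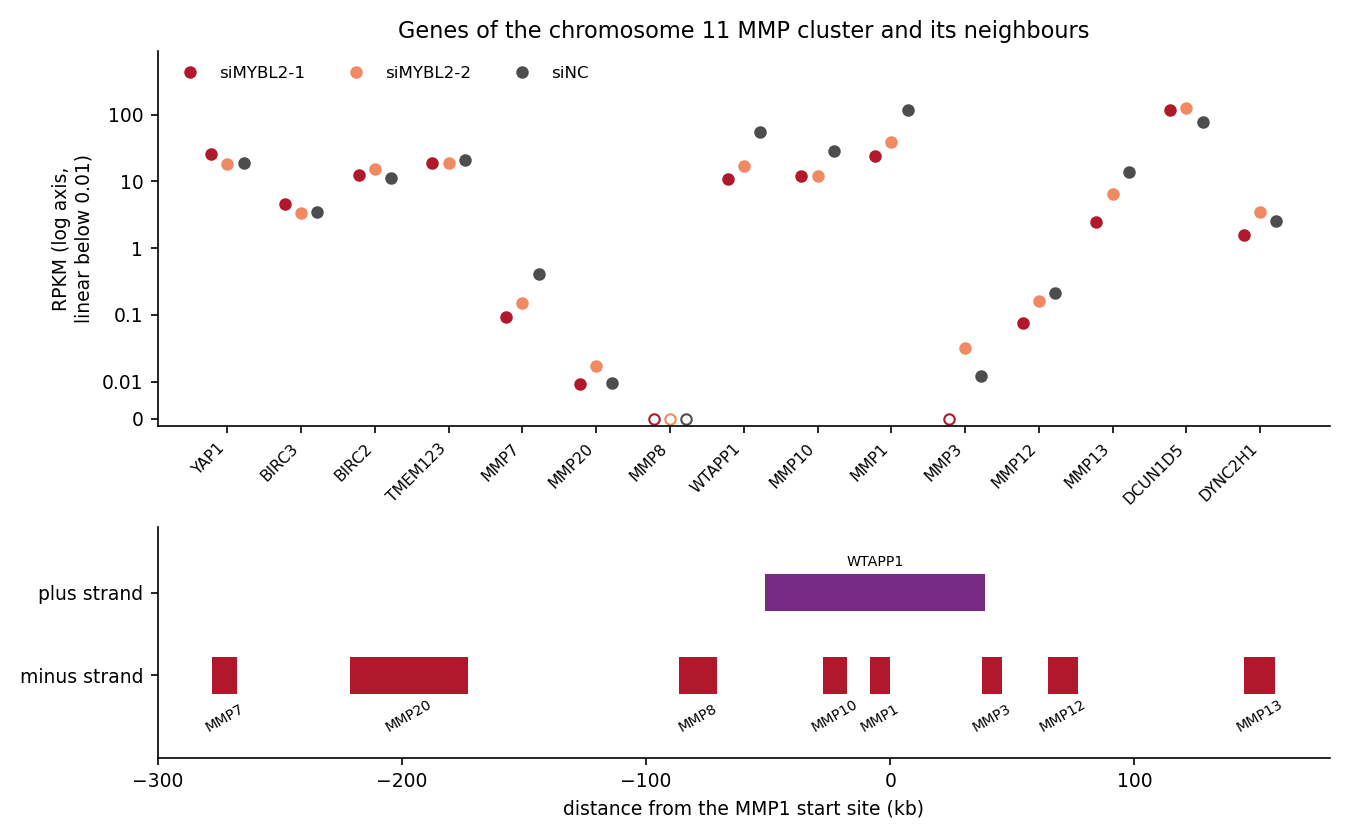
Upper panel, RPKM (log axis, linear below 0.01) in siMYBL2-1, siMYBL2-2 and siNC for genes in the order of chromosome 11, with open circles for 0 reads; lower panel, extent of the MMP genes and WTAPP1 as distance from the MMP1 start site in kilobases. WTAPP1, MMP10, MMP1 and MMP13 have siMYBL2 points below siNC, whereas DCUN1D5 stands at 115 and 125 RPKM in siMYBL2 and 76.4 RPKM in siNC.

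The 5 genes whose pair of log2 ratios lay nearest to that of MMP1, by Euclidean distance over the 2 siMYBL2 libraries among 6352 other genes of at least 5 RPKM, were WTAPP1 (distance 0.10), H19 (0.19), a short row named H19_1 (0.30), MYBL2 (0.32) and AQP3 (0.35). H19, an imprinted noncoding RNA, was at 43.3 and 79.1 RPKM against 235 RPKM in siNC, and AQP3, a water and glycerol channel, at 7.00 and 11.2 RPKM against 30.0 RPKM. With 3 libraries that share 1 control, such likeness is a description.

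The other MMPs were scarce. Of 14 further MMP rows only MMP28 and MMP15 reached a mean of 1 RPKM, and both were lower in both siMYBL2 libraries without being called by limma (0 with an unadjusted p under 0.05, 0 by limma-voom). MMP28, epilysin, was at 0.879 and 2.20 RPKM against 2.83 RPKM in siNC, and MMP15, a membrane-type relative of MMP14, at 2.03 and 1.77 RPKM against 2.32 RPKM. Of 8 further inhibitors of metalloproteinases, 3 were measured in the fit, with 1 below siNC in both libraries and 2 on opposite sides, and none was called (0 with an unadjusted p under 0.05, 0 by limma-voom). TIMP3, the matrix-bound inhibitor, was at 7.55 and 8.29 RPKM against 8.48 RPKM in siNC.

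Of 17 genes of the plasminogen system and of other proteases that act on proMMPs, 8 were in the fit, of which 4 lay below siNC in both siMYBL2 libraries, 3 above it in both and 1 on opposite sides. None passed limma, 2 had an unadjusted p under 0.05 and limma-voom called 0. PLAU, the urokinase that makes plasmin, was at 51.8 and 19.2 RPKM against 18.4 RPKM in siNC, and its inhibitor SERPINB2 at 180 and 29.6 RPKM against 14.8 RPKM. PLAT, the tissue plasminogen activator, was at 3.15 and 6.40 RPKM against 10.8 RPKM, and ST14, the membrane protease matriptase, at 71.9 and 35.8 RPKM against 33.2 RPKM. In PLAU, SERPINB2 and ST14 the siMYBL2-1 library stood apart from the others, which lay near each other in PLAU and ST14. The median over the list was 0.54 on the log2 scale for siMYBL2-1 and -0.13 for siMYBL2-2.

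Transcription factors that act on MMP promoters went in both directions. Of 18 AP-1, ETS and RUNX genes in the fit, 7 lay below siNC in both siMYBL2 libraries, 8 above it in both and 3 on opposite sides, with medians of 0.15 and 0.02. None passed limma (smallest adjusted p 0.264), 6 had an unadjusted p under 0.05 (4.71% of all tested genes did) and limma-voom called 0. FOSL1, the FOS family member FRA-1, was at 78.6 and 40.9 RPKM against 12.8 RPKM in siNC, and FOS itself at 1.68 and 3.53 RPKM against 8.33 RPKM. JUNB was at 15.1 and 19.3 RPKM against 33.0 RPKM, and ETS1 at 11.7 and 8.40 RPKM against 3.80 RPKM. FOSL1 and FOS thus lay on opposite sides of their siNC levels in both libraries. The further AP-1 genes were added once their values had been seen. JUN was at 68.8 and 48.2 RPKM against 98.4 RPKM. FOSB was at 1.83 and 1.35 RPKM against 3.51 RPKM, and JUND at 5.56 and 4.02 RPKM against 7.23 RPKM. FOS, FOSB, JUN, JUNB and JUND thus lay below siNC in both libraries, FOSL1 above it in both and FOSL2 on opposite sides. The other genes above siNC in both were ETS and RUNX genes.

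The fit held 15 genes that signal to MMP transcription (inflammatory cytokines, EGF receptor ligands, TGF-beta and collagen receptors). Of these, 4 lay below siNC in both siMYBL2 libraries, 5 above it in both and 6 on opposite sides, with medians of 0.46 and -0.17. None passed limma, 2 had an unadjusted p under 0.05 and limma-voom called 0. The EGF receptor ligands were not all on 1 side of siNC. AREG was at 206 and 106 RPKM against 60.4 RPKM in siNC, TGFA at 16.3 and 4.07 RPKM against 2.84 RPKM, and EREG at 7.52 and 2.79 RPKM against 2.32 RPKM. HBEGF, a further ligand, measured 24.5 and 8.88 RPKM against 12.6 RPKM, on opposite sides of siNC. It was chosen once its values had been seen. TGFBR1, a TGF-beta receptor, was at 2.72 and 4.07 RPKM against 5.65 RPKM.

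**Figure D5:**
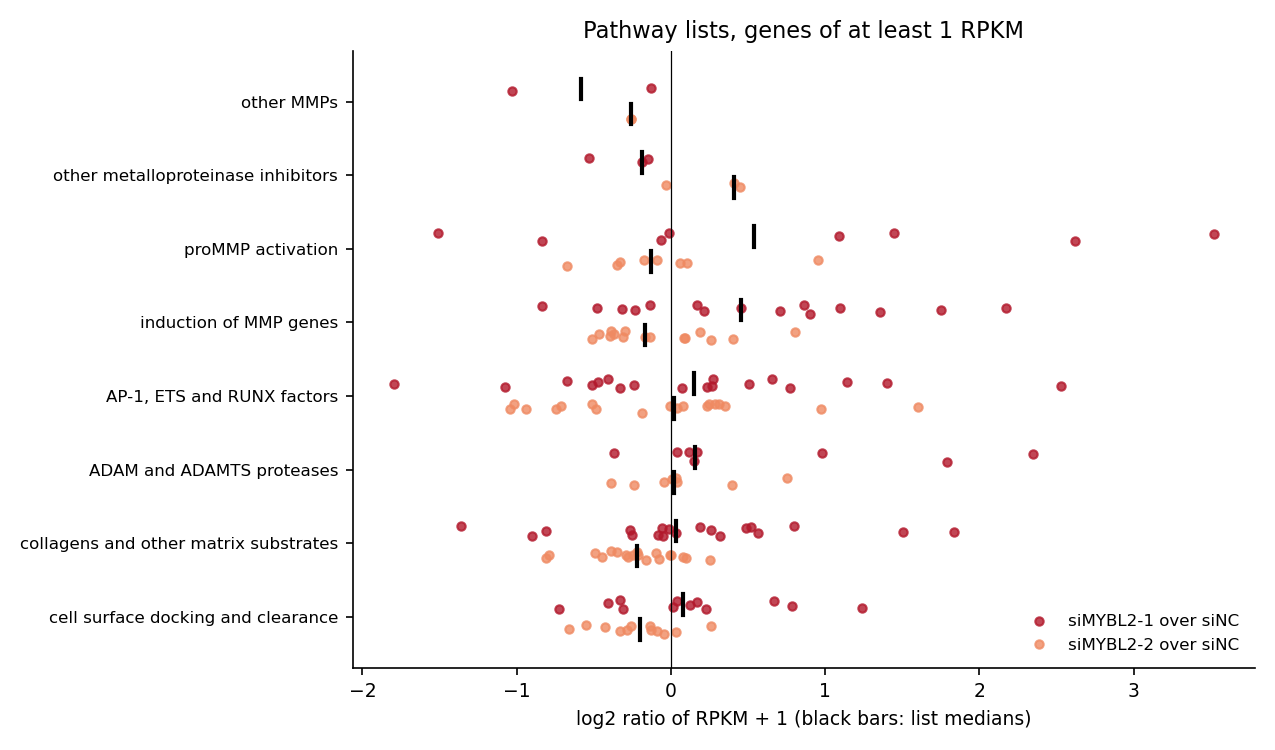
Log2 ratio of RPKM + 1 to siNC for the tested genes of 8 lists around the MMP system, 1 point per gene, in siMYBL2-1 (dark) and siMYBL2-2 (light), with black bars at the list medians. The medians of the proMMP activation list are 0.54 and -0.13, and those of the AP-1, ETS and RUNX list are 0.15 and 0.02.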

How the data were processed

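Per the labels' protocols, DNase-treated RNA was poly(A) selected, fragmented and made into dUTP-stranded libraries. The authors deposited 1 table of RPKM values with exon intervals and exonic lengths on hg38. The submitters' processing notes name cutadapt 1.9, HISAT2 2.0.4 and StringTie 1.3.4d. No source used here names the read counter, its strand setting or the annotation. Multiplied by length, 100% of the RPKM values were whole multiples of the smallest step of their library (tolerance 0.001 reads), which gave the reads behind each value.

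The fit was limma-trend (limma 3.58.1, R 4.3.3) on log2(RPKM + 1) for genes that averaged 1 RPKM or more, with Benjamini-Hochberg adjustment over 13274 genes and a threshold of 0.05. This scale understates the change of low genes. Its 1 residual degree of freedom comes from the 2 siMYBL2 libraries, and siNC, with 1 library, is taken to vary as much as they do. The fit, the recovery of reads and the motif search were tried on simulated data. Ratios of 2 libraries have exact conditional binomial intervals at 95% confidence, which cover counting error only. A count of 0 is given the limit of 3 reads.

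The members and all gene lists were chosen with earlier results of these data known. Named genes are the members, MYBL2, WTAPP1, the 5 genes nearest to MMP1 and, per list, up to 4 genes of the largest mean log2 ratio with 1 sign in both siMYBL2 libraries. TMEM123, BIRC2, BIRC3, YAP1, DCUN1D5, DYNC2H1, MMP8, MMP12 and MMP20 are named for their position. HBEGF, JUN, FOSB, JUND and FOSL2 were chosen once their values had been seen. FAP, KLK7, MMP26 and MMP27, members of the lists, were not analysed here.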

Additional observations from a re-analysis of the deposited data

How the results depend on the processing

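With 1 siNC library and 2 siMYBL2 libraries, the calls depended on the setting. The number of genes called higher was 1 with a pseudocount of 1, 0.5 or 0.1, 0 without the filter on low values, with a filter of 5 RPKM, with median scaling, without mitochondrially encoded genes and with robust moderation, and 3 by limma-voom, which also called 7 lower where the others called 0. Genes of the lists that are not members were called by no setting but limma-voom, which called 1, WTAPP1. Genes 2-fold different in both libraries numbered 93 higher and 107 lower with a pseudocount of 0.1, and 18 and 28 with the filter of 5 RPKM. Without 1 siMYBL2 library they numbered 56 to 286 higher and 121 to 237 lower. By construction, a smaller pseudocount or a rule applied to 1 library can only keep or raise these counts. A stricter filter can only keep or lower them. The cause of the other differences was not tested.

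The members above the filter kept their sign with median scaling and without mitochondrially encoded genes. By construction, a pseudocount cannot change the sign, and a filter leaves the value of a kept gene as it was. The mean ratio of summed MMP to summed TIMP level, relative to siNC, was 0.518, and 0.687 without MMP1, which decides part of it by construction. TGAGTCA alone was held by 4.20% of promoters, and by the window of MMP7 but not that of MMP10. Of the list counts, 94 of 108 stayed within 1.5 times under the other settings and 14 did not, and without 1 siMYBL2 library 26 of 36 did and 10 did not. Without siMYBL2-1 the docking list had 10 genes lower where both libraries gave 4, the matrix list 15 where both gave 9 and the induction list 9 where both gave 4. Without siMYBL2-2 the docking list had 8 genes higher where both gave 2. With 1 library left, each gene on opposite sides of siNC is counted on 1 side, so these counts can only stay or rise by construction. No paired analysis was possible, because there was 1 siNC library for 2 siMYBL2 libraries. MMP3, MMP7 and MMP9 are limited by depth.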

Other observations

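The matrix proteins that MMPs cut were represented by collagens, laminins and other secreted proteins. Of 19 collagen, laminin and other matrix genes in the fit, 9 lay below siNC in both siMYBL2 libraries, 4 above it in both and 6 on opposite sides, with median log2 ratios of 0.03 and -0.22. None passed limma, 3 had an unadjusted p under 0.05 and limma-voom called 0. COL17A1, the hemidesmosome collagen, was at 15.4 and 29.9 RPKM against 41.1 RPKM in siNC, and COL12A1, a collagen that associates with fibrils, at 41.9 and 41.8 RPKM against 74.1 RPKM. COL6A1 was at 0.855 and 1.47 RPKM against 2.47 RPKM, and COL7A1, the anchoring fibril collagen, at 86.5 and 51.7 RPKM against 90.0 RPKM. All 4 lay below siNC in both libraries, COL7A1 by little in siMYBL2-1. They were picked among genes with the same sign in both, so that agreement comes from the rule. The 4 genes above siNC in both are not named because their mean log2 ratios were smaller in size.

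Of 8 ADAM and ADAMTS proteases in the fit, 1 lay below siNC in both libraries, 5 above it in both and 2 on opposite sides. Their medians were 0.16 and 0.02, and none passed limma (1 with an unadjusted p under 0.05, 0 by limma-voom). ADAMTS9 was at 11.8 and 3.23 RPKM against 1.52 RPKM in siNC, ADAM8 at 4.09 and 0.516 RPKM against 0.473 RPKM, ADAM9 at 34.7 and 22.9 RPKM against 17.1 RPKM, and ADAMTS7 at 1.48 and 1.44 RPKM against 2.20 RPKM. Of 12 genes of docking and clearance at the cell surface in the fit, 4 lay below siNC in both libraries, 2 above it in both and 6 on opposite sides. Their medians were 0.08 and -0.20, and none passed limma (0 with an unadjusted p under 0.05, 0 by limma-voom). LRP1, an endocytic receptor that clears MMPs, was at 0.666 and 1.05 RPKM against 1.75 RPKM in siNC, and the collagen receptor gene MRC2 at 2.86 and 3.08 RPKM against 4.12 RPKM. SDC1 was at 39.9 and 40.6 RPKM against 49.7 RPKM, and CD9 at 10.8 and 11.4 RPKM against 13.9 RPKM.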
